A study of Mus musculus with 60 samples.

Results

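D7F and WTA are transfected mouse cell lines. D7F carries mutant Pabpn1 and its level is labelled low, and WTA carries the wild-type gene with its level labelled high. They were chosen because, among the 4 transfected lines, D7F had the lowest and WTA the highest Pabpn1 ratio. Their arrays make up 24 of the 60 arrays of the series, 12 per line. Each line was grown as 3 cultures, and the RNA of each culture was hybridised on 2 array parts with different probes, once with the culture RNA in Cy3 and once in Cy5. Every array carried RNA of the untransfected IM2 line in the other channel, as a common reference. The other transfected lines are WTD (wild-type Pabpn1, labelled low) and D7E (mutant Pabpn1, labelled high). They are used here to place D7F and WTA and as a second pair of lines. Their cultures and those of IM2 also enter the fit, so the SEs, intervals and p-values of D7F against WTA rest on them too. The mutation, the promoter, the tissue of origin and whether each line is 1 clone are not given in the labels, which name oculopharyngeal muscular dystrophy (OPMD). Each combination of genotype and level is 1 line, so genotype, level and line cannot be told apart. Nothing says how far the 3 cultures of a line were independent, so the p-values cover only the spread among cultures within the 5 lines.

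The product of Pabpn1 is a nuclear protein that coats the growing poly(A) tail of messenger RNA, stimulates poly(A) polymerase and helps to set the length of the tail. In people, an expansion of a short alanine stretch of this protein causes OPMD, a late-onset muscle disease in which the protein collects in inclusions in the nuclei of muscle fibres. All values below are log2 ratios of culture over IM2 reference, and a difference is D7F minus WTA on the same scale. The deposited values are log ratios whose base is not stated. Base 10 was assumed because they stop exactly at -2 and 2, a ratio of 100, and every log2 size and fold given here holds only under that assumption.

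On part I, 85.9% to 99.6% of the rows of a D7F array and 90.5% to 99.9% of the rows of a WTA array were filled, and on part II 82.0% to 99.4% and 49.97% to 98.7%. Of the 9 arrays in the series with over 20% of filled values at a limit or under 70% of rows filled, 0 were of D7F and 3 of WTA, all from WTA culture 1. The spread of the ratios also differed between the lines. The median absolute deviation of a part I array was 0.22 to 0.37 in D7F and 0.31 to 0.60 in WTA. On part II it was 0.28 to 0.45 in D7F and 0.29 to 0.61 in WTA. Across tested probes the cultures of 1 line correlated with r = 0.317 to 0.523 in D7F and 0.276 to 0.622 in WTA. Across all probes other than controls these ranges were 0.263 to 0.470 and 0.208 to 0.603. Over the same wider set the 2 dye orientations of 1 culture, as single arrays, correlated with r of only -0.10 to 0.18. Single arrays of the transfected lines that shared a dye correlated with r = -0.13 to 0.44. Probes are not independent replicates in such correlations. The positive Pabpn1 ratio on all part I arrays of both lines, in either dye, gave the direction of the ratios there. Part II has no such marker, so the direction of a part II value is less certain.

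Pabpn1 was used to choose the lines and is given as a description, with no test. Its ratio in D7F was 1.04, 0.83 and 0.87 in cultures 1 to 3, a mean of 0.92 ± 0.11 (SD, n = 3), which is 1.89 times the reference. In WTA it was 2.47, 2.22 and 1.89, a mean of 2.19 ± 0.29 (SD, n = 3), or 4.57 times the reference. The cultures of the lines did not overlap, and D7F lay 1.28 below WTA, a ratio of 2.42. The next values in the order were those of WTD at 1.43 ± 0.07 and D7E at 1.61 ± 0.14 (SD, n = 3 each), the one 0.52 above D7F and the other 0.58 below WTA. WTD and D7E differed by 0.18, and their cultures overlapped. With every array centred and scaled to the same spread the gap between D7F and WTA was 0.54 in size. Whether the probe reads endogenous Pabpn1 RNA, transfected RNA or a sum of them is not given.

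**Figure D1:**
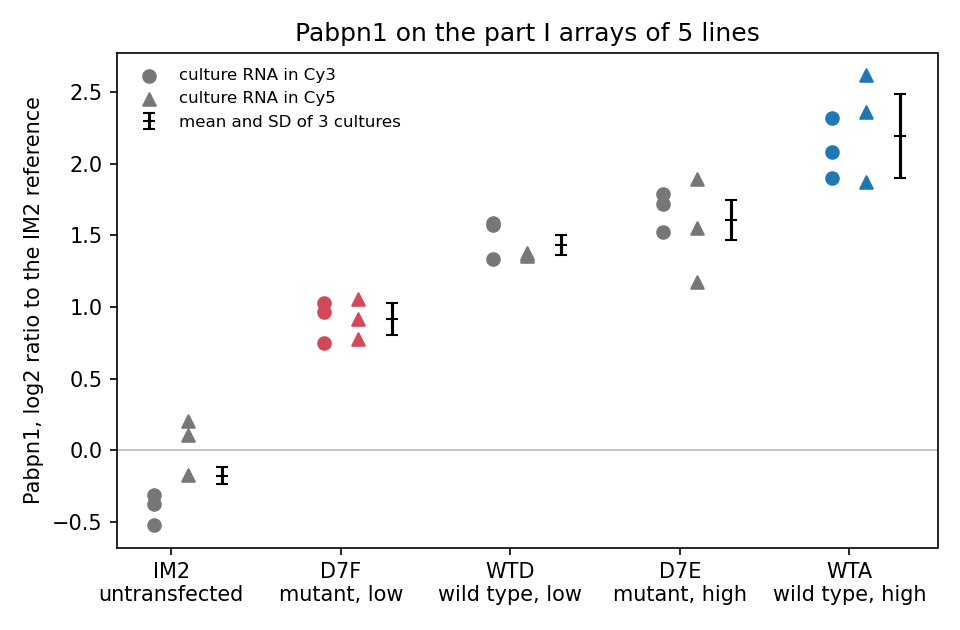
Pabpn1 log2 ratio to the IM2 reference (vertical axis) on each part I array of the 5 lines (horizontal axis, by mean). Circles and triangles are arrays with the culture RNA in Cy3 and in Cy5, and bars are the mean and SD of 3 cultures. All D7F arrays lie below all WTA arrays, and the WTD arrays lie between them. The D7E arrays overlap those of WTD, and 1 D7E array (1.89) lies above the lowest WTA array (1.87).

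The comparison of D7F with WTA asks how the transcriptomes of these lines differ. One carries mutant Pabpn1 labelled low and the other wild-type Pabpn1 labelled high, and protein was not measured here. Differences that passed were few and mostly on part I. The secreted antioxidant enzyme Sod3, the surface dipeptidase Dpep1 and the DNA repair gene Rad51b were higher in D7F. The vesicle fusion gene Vamp3, the dynactin gene Actr1a, the transcriptional coactivator Wwtr1 and the small GTPase gene Rhoa were lower. Apart from Pabpn1, 13930 probes for 10687 genes were measured in at least 2 cultures of each line, and 24 of them passed an adjusted p of 0.05, which is 0.172% of those tested (limma with Benjamini-Hochberg adjustment). Of these, 15 were higher in D7F (0.108%) and 9 lower (0.0646%). Part I held 21 of them among 5542 probes (0.379%), with 13 higher (0.235%) and 8 lower (0.144%). Part II held 3 among 8388 (0.0358%), with 2 higher (0.0238%) and 1 lower (0.0119%). At an unadjusted p under 0.05 stood 1185 probes (8.51%), 701 higher (5.03%) and 484 lower (3.47%), which was 10.6% of the part I probes and 7.15% of those on part II. Among 7788 probes measured in all 6 cultures the lines did not overlap for 1230 (15.8%), with 677 higher (8.69%) and 553 lower (7.1%) in D7F. Leaving out D7F culture 2 gave a count of 14, leaving out WTA culture 1 gave 15, and leaving out WTA culture 2 gave 45. It was 9 with arrays centred and scaled, and 0 when D7F and WTA cultures were fitted without the other lines, where 859 probes had an unadjusted p under 0.05.

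The size of the 24 differences had a median of 1.08 and ran from 0.65 to 2.29. All 24 had the same sign in the Cy3 arrays and in the Cy5 arrays, and all 24 kept their sign with arrays centred and scaled, where 7 of them still passed. The 24 were chosen by the mean of these same arrays, which favours an equal sign, so this agreement is a description. For 22 of the 24 the WTA mean lay farther from the IM2 reference than the D7F mean. The same held for 55.9% of all probes tested. With arrays centred and scaled these numbers were 20 of the 24 and 46.6% of all probes. The D7F and WTA values that chose the 24 also enter these counts, which are therefore descriptions. Of the 24 probes, 20 had a gene name, and 11 of these passed in all 6 fits that left out 1 culture, at an adjusted p of at most 0.0487. The 4 unnamed probes were 3 higher and 1 lower in D7F.

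**Figure D2:**
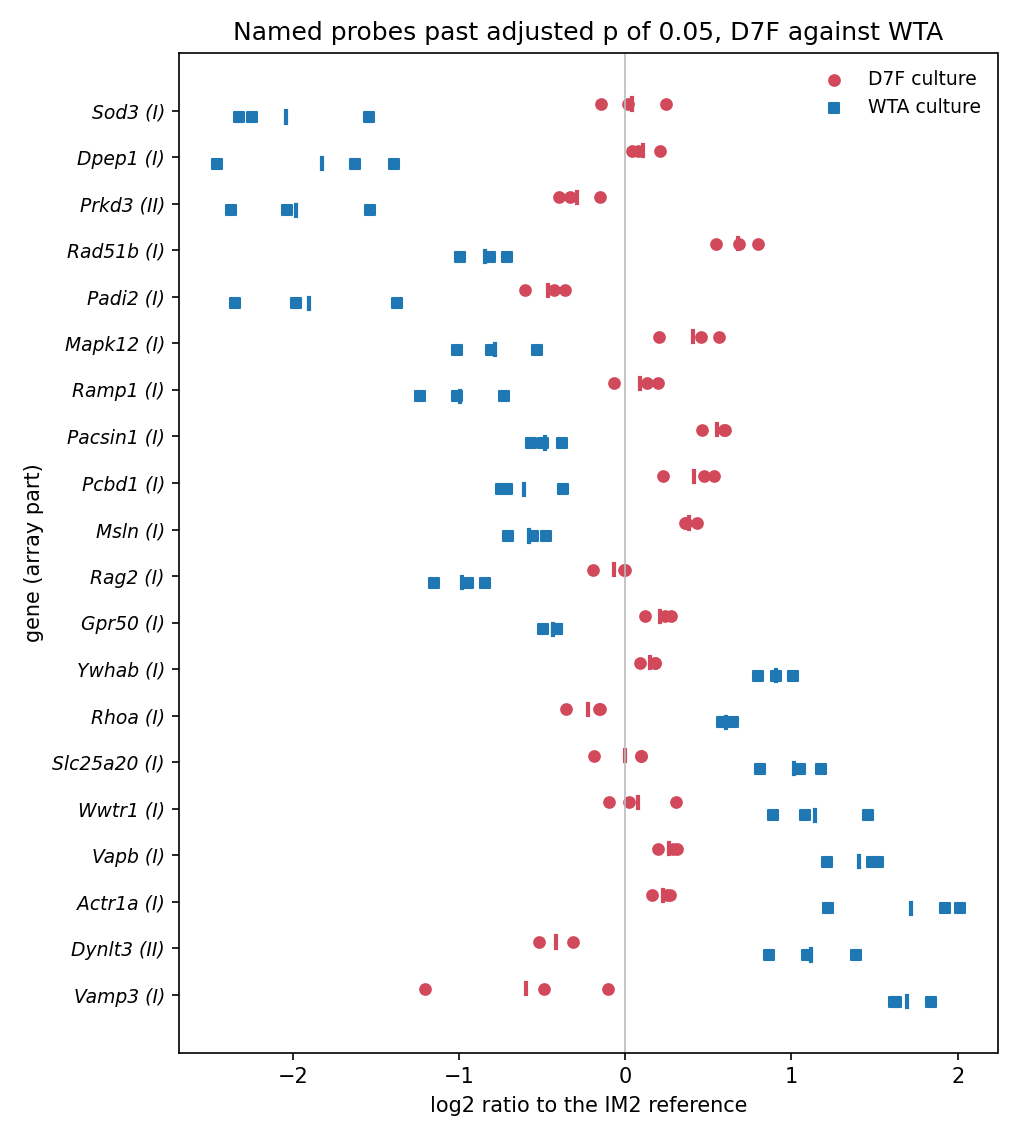
Log2 ratio to the IM2 reference (horizontal axis) of each D7F culture (circles) and each WTA culture (squares) for the 20 named probes past an adjusted p of 0.05, by difference. Short bars are line means. The D7F cultures mostly lie near 0, and the WTA cultures lie away from 0 on either side.

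Sod3, the extracellular superoxide dismutase, showed the largest rise among named genes measured in all 6 cultures. It stood at 0.25, 0.02 and -0.14 in the D7F cultures, against -2.33, -1.54 and -2.25 in the WTA cultures. The D7F cultures were thus near the reference and the WTA cultures far below it. The difference was 2.08 (SE 0.25, adjusted p = 0.00688), a 4.22-fold rise with a 95% interval of 1.53 to 2.63 on the log2 scale. Dpep1, a membrane dipeptidase that also cleaves leukotriene D4, had the same pattern. Its values were 0.04, 0.21 and 0.08 in D7F cultures, against -2.46, -1.39 and -1.63 in WTA cultures, a rise of 1.94 (SE 0.22, adjusted p = 0.00368). Dpep1 was the one named gene that passed in Cy3 arrays (adjusted p = 0.0247), in Cy5 arrays (adjusted p = 0.00449) and after arrays were centred and scaled (adjusted p = 0.0106).

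Rad51b acts in the repair of DNA breaks by homologous recombination. It stood at 0.69, 0.80 and 0.55 in the D7F cultures, against -0.82, -0.71 and -0.99 in the WTA cultures, so the lines lay on opposite sides of the reference. The rise was 1.52 (SE 0.16, adjusted p = 0.00368), with nearly equal differences of 1.53 in Cy3 arrays and 1.51 in Cy5 arrays. Mapk12, the p38 gamma kinase that is abundant in skeletal muscle, rose by 1.19 (SE 0.15, adjusted p = 0.00664). It stood at 0.21, 0.56 and 0.46 in D7F, against -1.01, -0.81 and -0.53 in WTA cultures. Pcbd1, an enzyme that regenerates the tetrahydrobiopterin cofactor and binds a liver transcription factor, rose by 1.02 (SE 0.14, adjusted p = 0.00817). Its D7F cultures ran from 0.23 to 0.54 and its WTA cultures from -0.75 to -0.37.

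The remaining named rises concerned genes with varied roles. Pacsin1, an adaptor of endocytosis best known from neurons, rose by 1.03 (SE 0.11), Msln, the surface protein mesothelin, by 0.96 (SE 0.11), and Rag2, a recombinase subunit of lymphocytes, by 0.91 (SE 0.10), each with an adjusted p of 0.00368. Their D7F and WTA cultures did not overlap, which the naming rule asked for. Padi2, which converts arginine to citrulline in proteins, rose by 1.44 (adjusted p = 0.0444). Ramp1, a partner of the receptor for calcitonin gene-related peptide, rose by 1.08 (adjusted p = 0.0107), and Gpr50, an orphan receptor related to melatonin receptors, by 0.65 (adjusted p = 0.0244), with 1.12 in Cy3 arrays and 0.17 in Cy5 arrays. Padi2 differed by 0.85 in Cy5 arrays and by 0.80 with arrays centred and scaled. A second Ramp1 probe, on part II, differed by -0.16 (adjusted p = 0.932). Prkd3, a kinase of the protein kinase D family, rose by 1.69 (SE 0.24, adjusted p = 0.0253) on a part II probe, but its difference was 3.34 in Cy3 arrays and 0.04 in Cy5 arrays, and a second Prkd3 probe differed by 0.12 (adjusted p = 0.915). These last 4 calls ended in fits without single cultures. Padi2 passed in 1 of the 6 such fits (highest adjusted p = 0.207). Ramp1 and Gpr50 were lost without culture 1 or 2 of D7F or culture 1 of WTA (highest adjusted p = 0.0569 and 0.0989), and Prkd3 without any 1 of the D7F cultures (highest adjusted p = 0.0958).

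Vamp3, a vesicle SNARE of recycling endosomes, showed the largest fall among the called probes. It stood at -0.10, -1.20 and -0.49 in the D7F cultures, against 1.62, 1.84 and 1.63 in the WTA cultures. The D7F cultures spread widely but stayed below every WTA culture. The difference was -2.29 (SE 0.37, adjusted p = 0.0402), a 4.91-fold fall. Actr1a, the filament-forming subunit of dynactin, which links cargo to the motor dynein, fell by 1.49 (SE 0.23, adjusted p = 0.0244). Its values were 0.27, 0.16 and 0.25 in D7F cultures, against 2.02, 1.22 and 1.92 in WTA cultures. Dynlt3, a light chain of dynein on part II, had values in only 2 D7F cultures, -0.31 and -0.52, against 0.87, 1.39 and 1.09 in the WTA cultures. It fell by 1.53 (SE 0.24, adjusted p = 0.0259), and it is named although it lies outside the naming rule, which asked for all 6 cultures. With values at the limits kept it differed by -0.24 and did not pass. The Vamp3 and Actr1a calls each ended in 5 of 6 fits without 1 culture, at an adjusted p of up to 0.133 and 0.122. Vamp3 passed only without culture 1 of D7F and Actr1a only without culture 2 of WTA.

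Vapb, a membrane protein of the endoplasmic reticulum that tethers it to other organelles, fell by 1.14 (SE 0.15, adjusted p = 0.00688). It stood at 0.20, 0.31 and 0.29 in D7F cultures, against 1.48, 1.22 and 1.52 in WTA cultures. Rhoa, the GTPase that drives actin stress fibres and contraction, stood at -0.36, -0.15 and -0.16 in D7F cultures, against 0.58, 0.59 and 0.65 in WTA cultures. The lines lay on opposite sides of the reference and the difference was -0.83 (SE 0.11, adjusted p = 0.00983). Ywhab, a 14-3-3 adaptor protein that binds phosphorylated partners, fell by 0.76 (SE 0.10, adjusted p = 0.00908). Slc25a20, the carrier that brings acylcarnitines into mitochondria, fell by 1.01 (SE 0.17, adjusted p = 0.0398), and its call ended without any 1 of the 6 cultures (adjusted p = 0.0518 to 0.196). With arrays centred and scaled Actr1a differed by -0.91, Vapb by -0.69 and Ywhab by -0.49, and none of the 3 passed.

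Wwtr1 encodes TAZ, a transcriptional coactivator of the Hippo pathway that binds DNA through TEAD factors. It stood at 0.31, 0.02 and -0.10 in the D7F cultures, against 1.08, 1.46 and 0.89 in the WTA cultures. The difference was -1.07 (SE 0.16, adjusted p = 0.0244), and the call ended without culture 2 or 3 of D7F or culture 1 of WTA (adjusted p of up to 0.0958). Ccn2 and Ccn1, matricellular genes widely used as readouts of TEAD activity, did not pass. Ccn2 had values in 2 D7F cultures, -0.08 and -0.44, against -1.23, -0.82 and -0.66 in WTA, a difference of 0.65 (SE 0.25, adjusted p = 0.507). Ccn1 differed by 0.36 (SE 0.14, adjusted p = 0.492), and its D7F cultures, at -0.40 to -0.35, lay above its WTA cultures, at -0.84 to -0.58. The coactivator and these 2 readouts thus had differences of opposite sign, although those of the readouts did not pass. With arrays centred and scaled Wwtr1 differed by -0.77, Ccn2 by 0.26 and Ccn1 by 0.08, and none of the 3 passed. TEAD activity itself was not tested.

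The promoters of Wwtr1, Ccn1 and the basement membrane gene Nid1 are shown because each holds 1 match to the TEAD core motif CATTCC, searched on both strands (GGAATG on the other). They are the 250 bases before the first listed start of each gene, 5′ to 3′ on the gene's strand, from RefSeq on GRCm38.p6, with the match in capitals. The Wwtr1 window is chr3:57575911-57576160 on the minus strand, the Ccn1 window chr3:145649986-145650235 on the minus strand and the Nid1 window chr13:13437352-13437601 on the plus strand.
Wwtr1: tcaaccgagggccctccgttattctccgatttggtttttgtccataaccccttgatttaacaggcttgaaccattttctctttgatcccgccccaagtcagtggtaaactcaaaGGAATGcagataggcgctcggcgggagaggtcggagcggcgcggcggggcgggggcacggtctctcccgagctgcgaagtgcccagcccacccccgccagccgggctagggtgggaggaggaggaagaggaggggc
Ccn1: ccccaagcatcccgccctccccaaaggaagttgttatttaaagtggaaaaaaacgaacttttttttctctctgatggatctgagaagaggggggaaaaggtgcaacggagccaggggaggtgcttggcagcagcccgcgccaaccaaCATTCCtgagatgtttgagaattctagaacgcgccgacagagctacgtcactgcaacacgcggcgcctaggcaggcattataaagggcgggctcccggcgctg
Nid1: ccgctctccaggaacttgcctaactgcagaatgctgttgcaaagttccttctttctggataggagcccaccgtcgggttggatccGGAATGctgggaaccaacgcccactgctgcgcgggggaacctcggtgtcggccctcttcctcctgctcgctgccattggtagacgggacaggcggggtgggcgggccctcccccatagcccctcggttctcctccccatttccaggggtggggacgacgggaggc

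The match starts 136 bases before the start in Wwtr1, 103 in Ccn1 and 165 in Nid1. Of the matrix genes tested, 47 have a promoter in the table, and 7 of them (14.9%) hold the motif. Of the 8421 tested genes with a promoter, 951 (11.3%) hold it, so the share among matrix genes is close to the share among all genes. The motif and the genes were chosen after their values were seen. A match is a string of letters in this window and not a bound site.

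Extracellular matrix genes, a list of 90 genes that build and remodel the scaffold around cells, stood more often above 0 than all probes did, although 0 of its 75 probes for 72 genes passed the adjusted threshold. At an unadjusted p under 0.05 stood 22 probes higher in D7F (29.3%, beside 5.03% of all probes) and 3 lower (4%, beside 3.47%). The same shares of all probes stand beside the counts of every list below. The median difference of the list was 0.21, beside 0.04 over all probes, and 51 of the 75 probes lay above 0, beside 7615 of all 13930. Of the 60 probes measured in all 6 cultures, 17 did not overlap and were higher in D7F, and 2 were lower, beside 8.69% and 7.1% of all such probes. All 22 were on part I, where 4.94% of all probes were higher and 5.61% lower at this threshold, and where the list's median was 0.32. Its 9 part II probes had 0 higher and 1 lower, beside 5.09% and 2.06% of all part II probes, with a median of -0.01. Over the 60 probes, the culture medians were -0.52, -0.44 and -0.55 in D7F, against -0.98, -0.70 and -0.47 in WTA. WTA culture 3 thus lay within the range of D7F, and WTA culture 1, which held the 3 poor arrays, lay lowest. Without WTA culture 1 the list had 10 of 70 probes higher and 2 lower, with a median of 0.11 beside 0.06 for all probes. In that fit 581 of all 13243 probes were higher, of 876 in either direction. With arrays centred and scaled the list had 4 of 75 higher and 2 lower, with a median of -0.00 beside -0.04 for all probes. Under that scaling 352 of all 13930 probes were higher, of 946 in either direction.

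By role, the proteases and their inhibitors had 5 of 10 probes higher at the unadjusted threshold and 0 lower, with a median of 0.43. For this and each further role, the shares of all probes were 5.03% higher and 3.47% lower. Apart from Tfpi2, Loxl2, Col1a1 and Col3a1, which the naming rule brought in, the members named here were chosen after their values were seen. None passed the adjusted test. Tfpi2, an inhibitor of serine proteases in the matrix, stood at -0.95, -1.48 and -0.93 in the D7F cultures, against -2.35, -1.81 and -2.48 in the WTA cultures, without overlap. Its difference was 1.09 (SE 0.22, adjusted p = 0.115). The metalloproteinases Mmp9 and Mmp11 had the highest differences of the list, 1.55 (SE 0.59, with values in 2 WTA cultures) and 1.46 (SE 0.56). Their D7F cultures spread widely, from -0.27 to 1.63 for Mmp9 and from 0.41 to 2.66 for Mmp11. Timp1, an inhibitor of metalloproteinases, differed by 0.55 (SE 0.16) and the aggrecanase Adamts5 by 0.45 (SE 0.18).

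The basement membrane genes had 4 of 13 probes higher and 2 lower, with a median of 0.39. Nid1, which links laminin to collagen IV, stood at -0.69, -0.63 and -0.69 in D7F cultures, against -1.93, -1.22 and -1.32 in WTA cultures. The D7F cultures were nearly equal and all above WTA, with a difference of 0.82 (SE 0.20, adjusted p = 0.199). Lama2, the laminin chain of muscle basement membranes, differed by 0.53 (SE 0.11, adjusted p = 0.119), Col18a1 by 0.61 and Col4a1 by 0.49. Lower in D7F were Col15a1 (-1.66, SE 0.61) and the laminin chain Lamc1 (-0.23, SE 0.10).

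The matricellular genes, whose products signal from the matrix rather than build it, had 5 of 9 probes higher and 0 lower, with a median of 0.36. Tgfbi, an adhesion protein induced by TGF-beta, stood at 0.56, 0.68 and 0.29 in D7F cultures, against -0.87, -0.16 and -0.24 in WTA cultures. It differed by 0.93 (SE 0.22, adjusted p = 0.199), and the lines lay on opposite sides of the reference. Beside Ccn1 and Ccn2, Ccn5 differed by 0.77 (SE 0.29) and Sparc, a collagen-binding glycoprotein, by 0.35 (SE 0.16).

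Fibrillar collagens had 2 of 8 probes higher and 0 lower, with a median of 0.19. Col11a1, a minor collagen that limits fibril width, differed by 0.82 (SE 0.20, adjusted p = 0.199) on 1 probe and by 0.07 on a second. With arrays centred and scaled the first Col11a1 difference was -0.16. The major fibril collagens Col1a1, at 0.30 (SE 0.24), Col1a2, at 0.09 (SE 0.35), and Col3a1, at -0.15 (SE 0.23), did not pass. Among the enzymes of collagen processing, 2 of 10 probes were higher and 1 lower, with a median of 0.13. The lysyl oxidase relatives lay on both sides: Loxl3 differed by 0.62 (SE 0.26) and Loxl2, which cross-links collagen, by -1.29 (SE 0.30, adjusted p = 0.180). Among the remaining members the microfibril-linked fibulins Fbln1 and Fbln2 differed by 0.68 and 0.69, or by -0.03 and 0.17 with arrays centred and scaled. Under that scaling Tfpi2 differed by 0.30, Nid1 by 0.27, Loxl3 by 0.03, Timp1 and Col18a1 by 0.02 and Sparc by 0.0003. Other named members kept more of their difference, such as Mmp11 (1.34), Mmp9 (1.23), Tgfbi (0.75) and Lama2 (0.43).

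**Figure D3:**
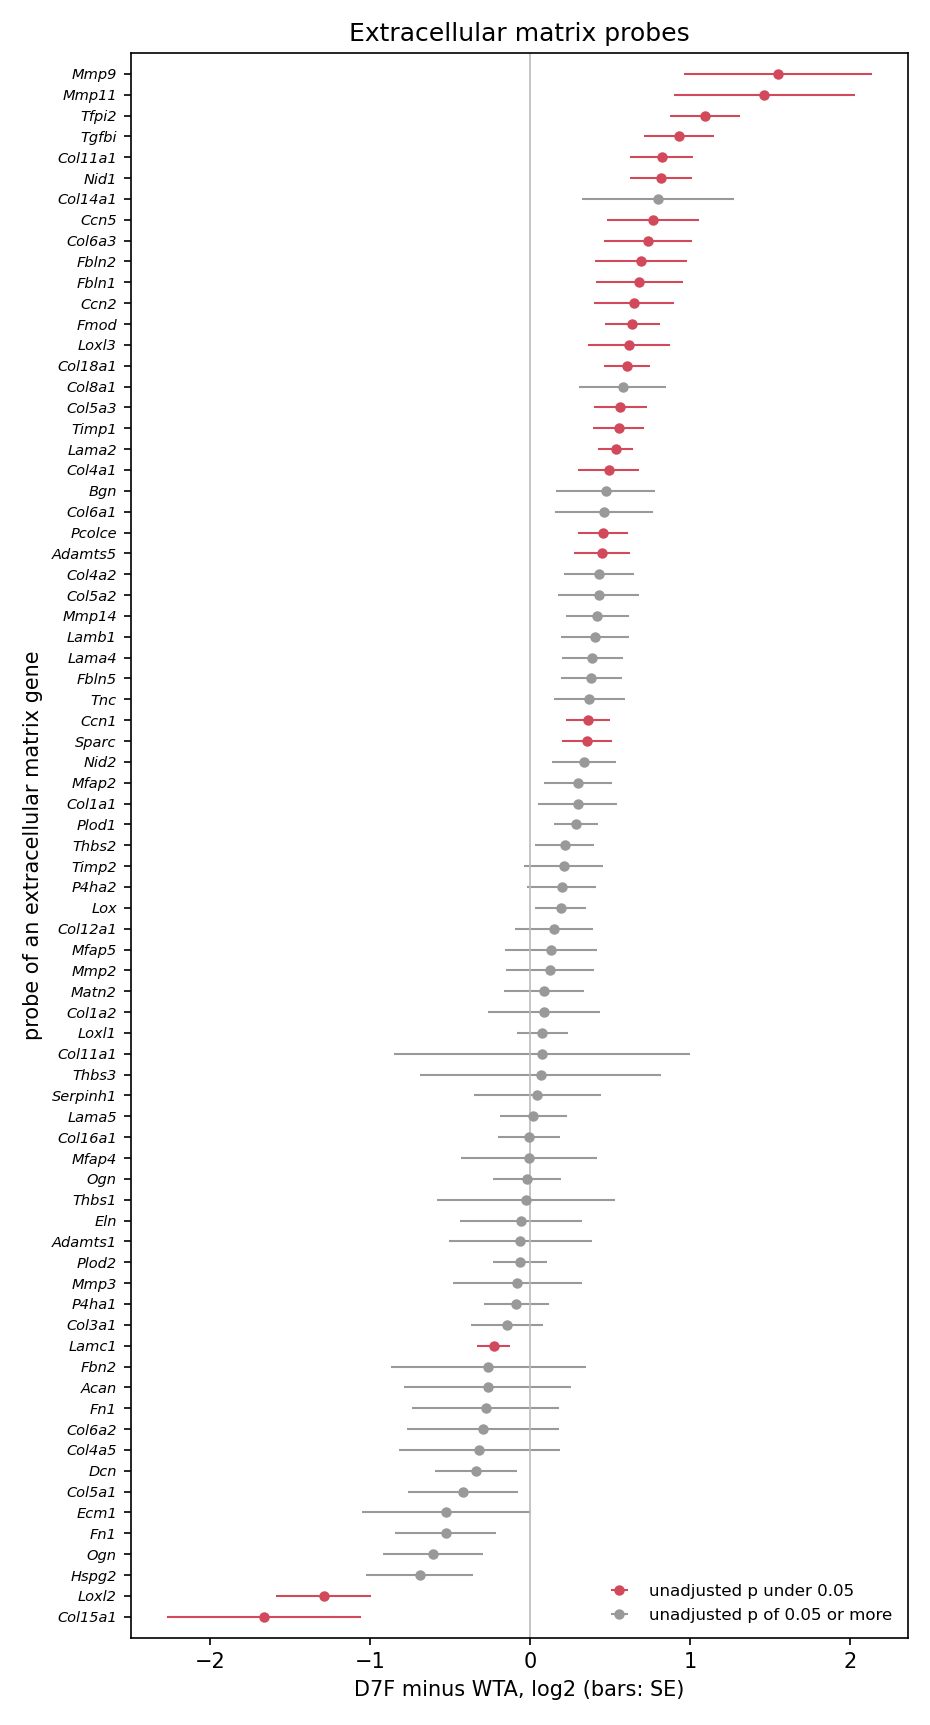
Difference D7F minus WTA (log2, horizontal axis, bars are the SE) of the 75 matrix probes tested, by size. Red marks an unadjusted p under 0.05, 22 probes above 0 and 3 below, and grey the others. Genes with more than 1 probe appear more than once.

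Markers of other cell types were read beside the matrix genes. Ratios to a reference give no level, so whether a marker is present at all cannot be read from them. Beside the counts of these short lists, 5.03% of all probes were higher and 3.47% lower at the unadjusted threshold. Smooth muscle and pericyte markers had 3 of 10 probes higher and 1 lower at the unadjusted threshold, with a median of 0.30, led by Lmod1 at 0.57 (SE 0.21, adjusted p = 0.492, with values in 2 D7F cultures) and at 0.31 (SE 0.36) on a second probe. Their culture medians over 8 probes were -0.08 to 0.17 in D7F and -0.20 to -0.04 in WTA, and the sums of these 8 ratios were -0.40 to 0.69 in D7F and -2.12 to -0.56 in WTA. Fibroblast markers had 0 of 14 higher and 1 lower, with a median of -0.02, and their lowest p was that of Dpt, which differed by -0.83. Over 10 fibroblast probes the sums were -2.80 to -2.60 in D7F and -3.13 to -0.51 in WTA. Adipocyte markers had 2 of 12 lower (Adipoq -1.68, but 0.18 in Cy5 arrays), endothelial markers 1 of 6 lower (Tek -1.19) and neural markers 1 of 16 higher and 3 lower (Snap25 -0.67). Leukocyte markers had 2 of 5 lower, among them Itgam at -2.06 from 2 cultures a side, and bone and cartilage markers had 0 of 6 (Dmp1 -0.41). Their part in the matrix differences was not tested.

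Among muscle genes the lower probes were more numerous, mainly on part I and with no call. The sarcomere list had 7 of 50 probes lower (14%, beside 3.47% of all probes) and 1 higher at an unadjusted p under 0.05, with a median of -0.05. Of its 47 probes measured in all 6 cultures 11 did not overlap and were lower in D7F, and 2 were higher, beside 7.1% and 8.69% of all such probes. Part I held 6 of the 7 lower probes, with a median of -0.20 over its 32 probes, while the 18 part II probes had a median of 0.09, close to the 0.08 of all part II probes. Myl2, a myosin light chain of slow and cardiac muscle and the lower part II probe, stood at 1.10, 0.96 and 0.65 in D7F cultures, against 2.88, 2.38 and 1.35 in WTA cultures. The lines did not overlap, and the difference was -1.30 (SE 0.31, adjusted p = 0.199). The lower probes, chosen after their values were seen, also included the titin-bound stress protein Ankrd1 (-0.99, SE 0.25), Smpx (-0.56) and Myom1 of the M-band (-0.41). With arrays centred and scaled the sarcomere list had 5 lower and 2 higher, and its median was 0.01.

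The list of calcium handling and energy supply in muscle had 4 of 37 probes lower and 2 higher, beside 3.47% and 5.03% of all probes. Its median was -0.21, or -0.05 with arrays centred and scaled. Fabp3, a fatty acid carrier, differed by -0.68 (SE 0.16, adjusted p = 0.184). Both higher probes in the list were of Ryr1, the calcium release channel of skeletal muscle, singled out after its values were seen. It differed by 0.96 (SE 0.23, adjusted p = 0.199) on part I and by 0.97 (SE 0.40, adjusted p = 0.534) on part II, without overlap on either part. A further pair of Ryr1 probes on part I differed by -0.21 (SE 0.30) and -0.18 (SE 0.23), so the 4 probes of this gene disagree in sign. The neuromuscular junction list had 4 of 25 probes lower and 1 higher, with Sgcb, a sarcoglycan, at -0.45 on 1 probe and -0.31 on a second. All 4 lower probes were on part I, where 5.61% of all probes were lower at this threshold.

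Most regulators of the myogenic programme had small differences. The list of myogenic regulators and fusion genes had 2 of 37 probes higher and 1 lower, and its lowest p belonged to Mef2d, a transcription factor of muscle genes, at 1.00 (SE 0.19, adjusted p = 0.0676). Mef2d stood at 0.49, 0.14 and 0.38 in D7F cultures, against -0.69, -0.69 and -0.60 in WTA cultures. The master regulator Myod1 differed by -0.10 with a 95% interval of -0.34 to 0.15, and Myog, which acts later in differentiation, by -0.20 (-0.78 to 0.39). The intervals of Myf5 (-0.47 to 0.76), Myf6 (-0.50 to 0.06), Pax7 (-0.81 to 0.49) and Mef2c (-0.42 to 0.27) also included 0. The cell cycle inhibitor Cdkn1c was nearly equal in the lines, at -0.32 in D7F and -0.30 in WTA, while its means were 1.06 in D7E and 1.45 in WTD. Cdkn1a and Rb1 differed by -0.19 each, with intervals from -0.99 to 0.60 and from -0.80 to 0.42.

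Among structural muscle genes fixed by name, Des differed by -0.37 (SE 0.17, adjusted p = 0.585) and Ckm by -0.59 (-1.48 to 0.30). Acta1, Actc1 and Myh8 differed by -0.05, 0.10 and -0.17, each with an interval that included 0. Igf2 had 1 WTA culture at 1.95 and 1 at -2.90, and its difference of 0.12 carried an SE of 1.24. Igfbp5 differed by 0.09 (SE 0.13).

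The machinery of polyadenylation, in which Pabpn1 acts, differed little. Without Pabpn1 itself, 1 of its 37 probes was higher and 1 lower at an unadjusted p under 0.05, and the median was 0.02. Cstf2, a cleavage factor that binds the pre-mRNA downstream of the poly(A) site, had the lowest p, at 0.93 (SE 0.32, adjusted p = 0.420). The cytoplasmic tail-binding genes Pabpc1 and Pabpc4 differed by 0.21 (SE 0.11) and -0.14 (SE 0.26), and the poly(A) polymerase gene Papola by -0.13 (SE 0.12). The cleavage factor genes Nudt21, at 0.02 and 0.12 on 2 probes, and Cpsf6, at -0.01, were close to 0 with SEs of 0.16 to 0.20. Splicing factors and hnRNP proteins had 0 of 59 probes higher and 3 lower, with a median of -0.00, led by Celf1 at -0.93 (SE 0.21, adjusted p = 0.199) on 1 probe and -0.02 on a second.

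Protein quality control, which is of interest for a disease of nuclear inclusions, gave no call either. Proteasome subunits had 0 of 36 probes higher and 1 lower, with a median of -0.08. The lower one was Psmb2 at -1.63 (SE 0.69), whose cultures overlapped. Ubiquitin enzymes had 0 of 60 higher and 3 lower (median -0.12), among them Ube2c, an enzyme that drives mitotic exit, at -1.05. Heat shock proteins and chaperones had 1 of 55 higher and 1 lower (median 0.00), with Hspe1 at 0.51 (SE 0.15), Cryab at -0.28 and Hspa8 at -0.52 and 0.49 on 2 probes. Lysosome and autophagy genes had 0 of 45 higher and 3 lower (median -0.16), led by Lamp2, a lysosomal membrane protein, at -0.78 (SE 0.22, adjusted p = 0.271). Genes of the endoplasmic reticulum stress response had 1 of 44 higher and 2 lower, with a median of 0.15 that was -0.08 with arrays centred and scaled. Ddit3, the stress factor CHOP, stood far below the reference in both lines, at -1.86 in D7F and -2.07 in WTA, a difference of 0.21 (SE 0.15) that was -0.60 with arrays centred and scaled.

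Cell cycle genes had a median below that of all probes, but with the ratios as deposited few passed even the unadjusted threshold. The list of DNA replication and mitosis had 5 of 64 probes lower and 2 higher, beside 3.47% and 5.03% of all probes, with a median of -0.16. Part I had 2 of 47 lower, beside 5.61% of all part I probes, and part II 3 of 17, beside 2.06%. With arrays centred and scaled the list had 22 lower and 1 higher with a median of -0.34. Under that scaling 946 of all 13930 probes had an unadjusted p under 0.05, and 352 of these were higher. Of 43 probes measured in all 6 cultures, 9 did not overlap and were lower in D7F and 0 were higher, beside 7.1% and 8.69% of all such probes. Ube2c, on part II, stood at -2.34, -1.68 and -1.67 in D7F cultures, against -1.01, -0.75 and -0.77 in WTA cultures, with a difference of -1.05 (SE 0.26, adjusted p = 0.199). The mitotic cyclin Ccnb2, chosen after its value was seen, differed by -0.85 (SE 0.23).

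Ribosomal protein genes had 57 of 71 probes above 0, with a median of 0.16 that was 0.05 with arrays centred and scaled. At the unadjusted threshold 3 were higher and 0 lower, beside 5.03% and 3.47% of all probes, and 7 of 65 did not overlap and were higher, beside 8.69%, so these counts are near those of all probes. Rps16 differed by 2.11 on a part II probe measured in 2 cultures a side (adjusted p = 0.115), and by 0.16 on a part I probe. Oxidative phosphorylation genes had 1 of 70 higher and 1 lower (median -0.08), with Ndufc2 at 0.61. Core glycolytic enzymes had 17 of 21 probes below 0 (median -0.21), with 1 lower, Ldha at -0.58 (SE 0.17). Hypoxia-responsive genes had 1 of 27 higher and 1 lower, led by Bnip3 at -0.74, and Ndrg1 differed by 0.20 and 0.65 on 2 probes. Cholesterol synthesis had 2 of 18 lower and 1 higher, led by Hsd17b7 at -2.41 from 2 cultures a side.

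Oxidative stress defence held Sod3 as its single call among 37 probes, with 5 higher and 2 lower at the unadjusted threshold and a median of 0.01. The cytoskeleton and adhesion list held Actr1a as its single call among 55 probes, with 4 higher and 1 lower and a median of 0.06. The interferon and antigen presentation list had 3 of 45 probes higher and 0 lower, led by Isg15 at 0.49 (SE 0.15, adjusted p = 0.316), which was -0.19 with arrays centred and scaled. H2-D1 differed by -0.07. The p53 and cell death list had 3 of 45 higher and 2 lower, led by Pdcd4 at -0.90 (SE 0.21). The insulin-like growth factor list had 1 of 15 higher, Igfbp7 at 0.39 (-0.25 with arrays centred and scaled), and the imprinted genes 2 of 28 higher and 1 lower, led by Snrpn at -0.79 (SE 0.19).

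**Figure D4:**
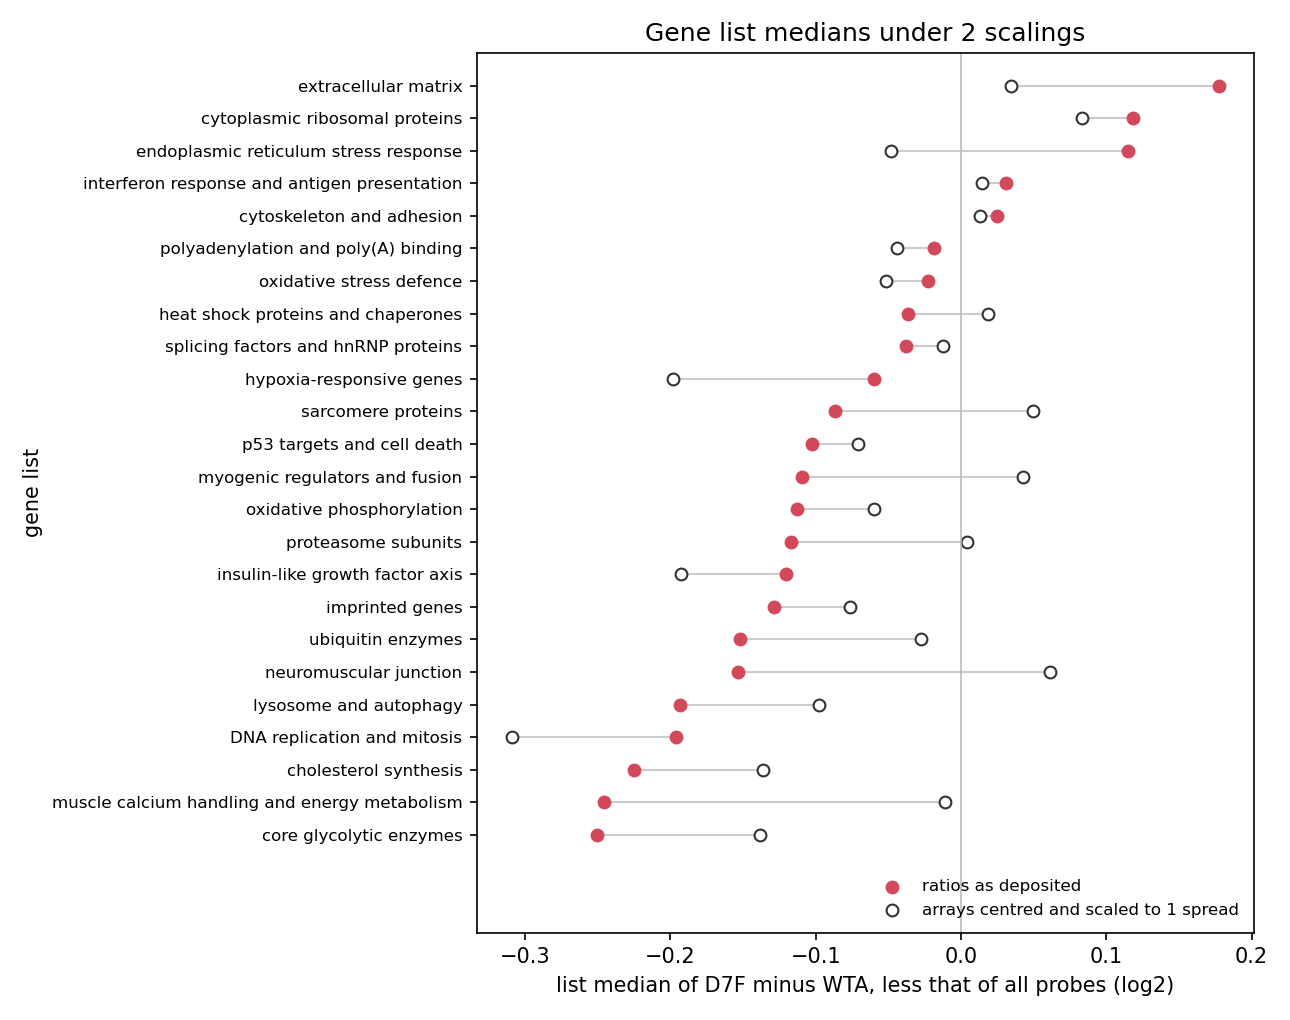
Median difference D7F minus WTA of each of 24 gene lists, less the median of all probes (log2, horizontal axis). Filled points use the ratios as deposited and open points use arrays centred and scaled to the same spread. The matrix list lies farthest right with the deposited ratios, at 0.18, and is at 0.03 after scaling, while the DNA replication list lies at -0.20 and -0.31.

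Further genes that the naming rule brought in did not pass. Among those higher, Tmem176b differed by 0.79 (SE 0.14, adjusted p = 0.0694) and Tmem150a by 0.76 (SE 0.14, adjusted p = 0.0836). Among those lower were Hif1an, an oxygen-dependent hydroxylase that restrains hypoxia-inducible factor (-1.23, SE 0.24, adjusted p = 0.101), Lrrn1 (-0.89, and -0.31 on a second probe) and Vldlr, a receptor for lipoproteins (-0.63). Arrdc4, Yipf7, Aif1l, 2310034G01Rik and Prxl2c differed by -1.18, -0.996, -0.88, -0.75 and -0.74. The cultures of D7F and WTA did not overlap for any of these genes.

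The other transfected lines placed the called probes. For 15 of the 24 (62.5%) the means of both WTD and D7E lay between those of D7F and WTA, beside 17.2% of the 12042 probes measured in at least 2 cultures of each transfected line. Both lay nearer D7F for 12 (50%, beside 43.2%) and both nearer WTA for 3, beside 3177 of 12042. For 9 the line labelled low, WTD, lay nearer D7F and the line labelled high, D7E, lay nearer WTA, beside 1957 of 12042. The reverse, with the mutant D7E nearer the mutant D7F and WTD nearer WTA, occurred for 0 of the 24, beside 1704 of 12042 probes. The 24 were chosen by their D7F and WTA values, which also enter these positions, so the counts are descriptions.

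**Figure D5:**
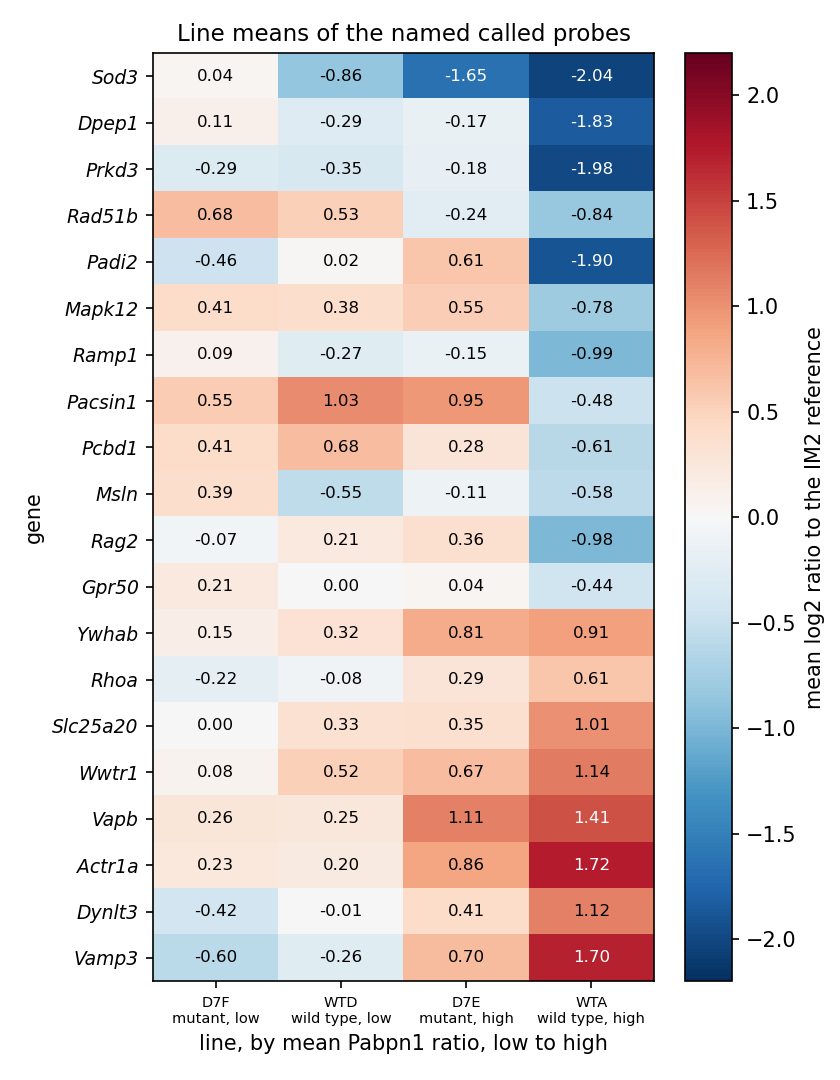
Mean log2 ratio to the IM2 reference (colour and printed value) of the 20 named probes past the threshold in the 4 transfected lines, ordered by mean Pabpn1 ratio. Actr1a, Vapb, Rhoa and Ywhab are close in D7F and WTD and higher in D7E and WTA, while Dpep1, Prkd3 and Ramp1 are low in WTA alone.

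Whether D7F against WTA differed from the other mutant against wild-type pair, D7E against WTD, was tested directly. That pair shares no culture with the first and has nearly equal Pabpn1. The contrast is D7F minus WTA less D7E minus WTD, which is the same sum as 2 times the mean of the lines labelled low less the mean of those labelled high, so the 2 readings cannot be told apart. By limma, 30 of 12042 probes (0.249%) passed the adjusted threshold, 12 above 0 (0.0997%) and 18 below (0.149%). Without adjustment 876 probes (7.27%) had a p under 0.05, 558 above 0 (4.63%) and 318 below (2.64%). In 28 of the 30 the estimated differences of the 2 pairs had opposite signs, which choosing probes by this contrast favours. None of the 30 passed the adjusted threshold in both pairs on its own, so these are signs of estimates only. The count ran from 15, when D7F culture 2 was left out, to 70, when WTA culture 2 was.

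Rad51b had the clearest such contrast among named genes. D7F exceeded WTA by 1.52, while D7E was 0.77 below WTD (adjusted p = 0.170), and the contrast was 2.29 (SE 0.22, adjusted p = 0.00240). Its line means were 0.68 in D7F and 0.53 in WTD, and -0.24 in D7E and -0.84 in WTA. Vapb ran the other way, at -1.14 between D7F and WTA and 0.85 between D7E and WTD, with a contrast of -1.99 (SE 0.20, adjusted p = 0.00240). Sod3 (2.87), Pcbd1 (1.42), Pacsin1 (1.12) and Dpep1 (1.82) had contrasts above 0 with an adjusted p of at most 0.0398. Vamp3 (-3.26), Actr1a (-2.15), Dynlt3 (-1.95), Ywhab (-1.25) and Rhoa (-1.20) had contrasts below 0 with an adjusted p of at most 0.0446.

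For 3 of the 5 named genes with the lowest p in this contrast the difference lay mainly between D7E and WTD. Gpx7, a peroxidase of the endoplasmic reticulum, stood at -0.35 in D7F and -0.72 in WTA, but at -0.25 in D7E and -3.38 in WTD (contrast -2.76, SE 0.33). Loxl2 stood at -1.71 in D7F and -0.42 in WTA, and at 0.21 in D7E and -2.02 in WTD (contrast -3.53, SE 0.41). Xrcc5, the Ku80 subunit of DNA end joining, stood at -0.21 in D7F and 0.02 in WTA, and at 0.26 in D7E and -0.84 in WTD (contrast -1.33, SE 0.15). The adjusted p of each contrast was 0.00240.

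Genes probed on both array parts gave a last check of the comparison. For 268 genes the difference D7F minus WTA on part I correlated with that on part II with r = 0.0989 (rho = 0.129). The mean ratio of D7F correlated with r = 0.135 (rho = 0.170) and that of WTA with r = 0.226 (rho = 0.210). These are correlations across genes, which are not independent replicates, and the parts share the cultures.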

How the data were processed

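The log ratios (taken as log10) are the values the authors deposited for each array, a table per array part. How they were scanned, background-corrected and normalized, and their base, is not given in the sources used here. Titles gave the line and the culture number, and channel sources gave the dye, also for WTA culture 3 on part I, where the titles name the other dye. A Cy3 array of D7F culture 1 is described as high, against its title, which was followed.

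From the deposited log10 values, log2 ratios were computed (times 3.322). Values at -2 or 2 counted as not measured, rows with identical values were collapsed (part I 16416 rows to 7600 probes, part II 15552 to 14326), and control probes were left out. A single symbol of the GRCm38.p6 gene table matched 6722 and 9241 probes of parts I and II. Another 29 and 647 kept the platform name, and the rest had several names or none. Both dye orientations were required of each culture and averaged. Each part was fitted with limma 3.58.1 in R 4.3.3 (lmFit, eBayes) with all 5 lines, so that they share 1 estimate of the spread. Benjamini-Hochberg adjustment ran over both parts, with a threshold of 0.05. Tables were made in Python 3.11.15. Arrays have no read depth, and their number limits the precision.

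Up to 15 named rises and 15 falls were those called with values in all 6 cultures and no overlap, continued by lowest p. For each list up to 4 called members or the member with the lowest p were named, with a fixed set of muscle, stress and polyadenylation genes and the 5 named genes with the lowest p in the 4-line contrast. The members and lists were chosen with earlier results of these data known. On data simulated for D7F against WTA (13931 probes), 21 of 66 probes changed by 1 and 40 of 66 changed by 2 on the log2 scale were called, 0 of 68 changed by 0.5, and 5 of 13731 unchanged ones. The simulation gave each probe the same normal spread in every line, whereas WTA arrays spread more than D7F arrays on part I. Its counts may therefore not hold for these data. The alternatives were kept limit values, array centring and scaling, single dyes, 1 orientation allowed, other lines in the fit, stricter filters, array weights, a replicate block, genes counted once, a size threshold and leaving out poor arrays or 1 culture.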

Additional observations from a re-analysis of the deposited data

Results flagged for a closer look

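A set of 30 probes gave a difference between the 2 pairs of mutant and wild-type lines, D7F against WTA and D7E against WTD, by the test of the difference itself (limma, adjusted p under 0.05). The values below are D7F minus WTA less D7E minus WTD, which is also 2 times the mean of the lines labelled low less that of the lines labelled high.

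Among genes called in D7F against WTA, contrasts above 0 were those of Sod3 (2.87), Rad51b (2.29), Dpep1 (1.82), Pcbd1 (1.42) and Pacsin1 (1.12). Those below 0 were Vamp3 (-3.26), Actr1a (-2.15), Vapb (-1.99), Dynlt3 (-1.95), Ywhab (-1.25) and Rhoa (-1.20). Among named genes that did not pass in D7F against WTA, Isg15 (1.5) and Tmem176b (1.13) lay above 0, and Loxl2 (-3.53), Gpx7 (-2.76), Hif1an (-1.94), Pdcd4 (-1.70) and Xrcc5 (-1.33) below. For Isg15 the D7E minus WTD difference was -1.01 (adjusted p = 0.0225). None of the genes listed here as called in D7F against WTA passed on its own in D7E against WTD (adjusted p of 0.0640 or more, lowest for Vapb). Among the listed genes not called there, Isg15, Loxl2, Gpx7 and Xrcc5 passed in D7E against WTD.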

How the results depend on the processing

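The count of 24 probes in D7F against WTA was 15 with a single dye orientation allowed, 1 with Cy5 arrays alone, 136 with array weights (all 24 among them), 9 with arrays centred and scaled, and 40 with probes required in all 3 cultures of each line. With D7F and WTA alone it was 0. Leaving out 1 culture gave 14 to 45. The count of 30 in the contrast of the pairs was 14 with a single orientation allowed, 8 with Cy3 and 5 with Cy5 arrays alone, 101 with array weights, 18 with limit values kept and 48 with all 3 cultures required, and leaving out 1 culture gave 15 to 70. Calls among the members of the 24 lists, 2 as reported, were 1 with a single orientation allowed, 0 with the 2 lines alone, Cy5 arrays alone, arrays centred and scaled or limit values kept, 34 with array weights and 6 with all 3 cultures required, and leaving out 1 culture gave 1 to 8. The Pabpn1 difference was -0.54 with arrays centred and scaled.

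With the culture number as a block (replicate block) the counts were 15, 18 and, among list members, 1. No consistent pairing by number was seen. Deviations of same-numbered cultures correlated with r = -0.10 to 0.41, and on each part 1 of 3 D7F cultures correlated best with its own number. With 3 cultures a line this check cannot exclude a pairing. Differences that changed sign with arrays centred and scaled included Isg15 (-0.19), Igfbp7 (-0.25), Ddit3 (-0.60), Fbln1 (-0.0284) and Col11a1 (-0.16). Others were Ndrg1 on part I (-0.88), Rb1 (0.34), Igfbp5 (-0.23), Pabpc1 (-0.20), Col1a1 (-0.18) and Mef2c (0.18), among further genes with small differences. Adipoq was 0.18 with Cy5 arrays alone and Igf2 ran from -1.24 (without culture 3 of WTA) to 1.18 (without culture 1 of WTA). The cause was not tested for any of these.

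The count in D7F against WTA was 21 without the poor arrays and 19 with genes counted once. The unknown base and normalization limit every size. The median spread of WTA arrays on part I was larger than that of D7F arrays (0.28 in D7F and 0.47 in WTA). In data simulated with the same spread in every line, 0 of 68 differences of 0.5 were called.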
